A study of Rattus norvegicus with 74 samples.

Results

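The mature products of the miR-144 and miR-451 locus were followed in whole kidneys of untreated F344 rats of both sexes at 8 ages, 4 of them early (2, 5, 6 and 8 weeks) and 4 later (15, 21, 78 and 104 weeks). The miRNAs were chosen as the array's entries for miR-144, miR-451 and miR-486, of either arm, that were detected on at least 1 array. Of 677 miRNAs on the array, 4 carried such a name and 3 of those were detected: rno-miR-451-5p on 74 of 74 arrays, rno-miR-144-5p on 14 and rno-miR-144-3p on 5. The other entry, miR-451-3p, was detected on 0 arrays, and rno-miR-486 was not analysed here. Each array held the RNA of 1 animal, with 36 arrays of females and 38 of males in 16 groups of age and sex. There were 4 animals in each of the groups of 2-, 5-, 8- and 21-week females and of 8- and 104-week males, and 5 in each of the other groups. The rats came from 1 breeding colony, the estrous cycle of the females was not synchronized, and a frozen powder of the whole organ was extracted. Whether the kidneys were rinsed of blood is not given in the sources used here.

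miR-144 and miR-451 are cut from neighbouring hairpins of 1 primary transcript, which GATA1 drives in the erythroid lineage. miR-451 is one of the most abundant miRNAs of mature red cells, and it is matured by Argonaute 2 without Dicer, so that its hairpin is not opened into a usual pair of arms. Both miRNAs are therefore widely read as a sign of red cells, and of the blood left in a tissue, and miR-451 promotes red cell differentiation while miR-144 tempers the response of these cells to oxidative stress through the transcription factor Nrf2. In a whole organ, fewer cells of a type and less RNA per cell cannot be told apart.

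The mature sequences are shown because the array told the arms apart by them, with the seed (bases 2 to 8), the part that pairs with targets, in capitals. They were taken from RefSeq for the GRCr8 build, where all 4 names were found.
miR-451-5p: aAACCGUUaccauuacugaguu
miR-144-5p: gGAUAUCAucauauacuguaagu
miR-144-3p: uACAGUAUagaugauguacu
miR-451-3p: aUGGUAAUgguucucuugcugcu
None of the other rat miRNAs in that table, which names 693 mature miRNAs, shared a seed with any of these 4. miR-144-3p shared bases 2 to 7 with miR-101a-3p and miR-101b-3p. The locus lies on the plus strand of chromosome 10, with the miR-144 hairpin at chr10:63459397-63459479 and the miR-451 hairpin at chr10:63459569-63459640, and 89 bases between them. The hairpins are shown for that order and for how short the loop of miR-451 is, with the member arms in capitals.
Mir144: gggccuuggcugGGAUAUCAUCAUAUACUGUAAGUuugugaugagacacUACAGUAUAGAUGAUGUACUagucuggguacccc
Mir451a: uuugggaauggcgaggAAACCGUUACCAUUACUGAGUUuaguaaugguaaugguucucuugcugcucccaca

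An array detected 190 to 264 miRNAs with a median of 232, and 311 were detected on at least 1 array. Of the 10 slides, 5 carried the ages of 2 to 8 weeks, with 1 15-week female among them, and 5 carried the later ages. The kidney tubule markers miR-192-5p, miR-194-5p and miR-204-5p were detected on all 74 arrays, and miR-215 on 0. The liver marker miR-122-5p was detected on 69 arrays.

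miR-451-5p was well measured in every animal. Its total gene signal, the scanner's sum over the spots of a miRNA, was 49.3 to 762, and its normalized intensity was 0.538 to 4.50 with a median of 1.51. Normalized intensity is that signal divided by the 75th percentile of the 311 detected miRNAs on the same array, so that 1 is the array's 75th percentile. The signal was 12.1 to 13.0 times its own error on each of the 74 arrays. By its mean over the arrays, miR-451-5p ranked 65 among the 311 miRNAs by normalized intensity. The 2 probes that measure it, with 10 spots each, correlated at 0.994 over the 74 arrays and at 0.991 after group means were removed. The groups of age and sex accounted for 80.4% of the variance of its log2 values. That share is not adjusted for the number of groups and can hold differences between the early and the later slides. The share for other miRNAs is not given.

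miR-451-5p followed a course with 2 rises, from 2 to 5 weeks and again towards old age, with a low in between. At 2 weeks, the normalized intensities were 0.886, 0.947, 0.898 and 0.801 in the females (mean 0.883 ± 0.0607, SD, n = 4). In the 2-week males they were 0.992, 1.10, 1.07, 0.972 and 1.08 (1.04 ± 0.0569, n = 5). The 2 sexes did not overlap at this age, although they lay close together, and these were among the tightest groups of the series.

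At 5 weeks, females had 1.94, 1.88, 1.44 and 1.66 (1.73 ± 0.228). The 5-week males had 2.67, 1.66, 2.55, 1.62 and 1.87 (2.08 ± 0.498). Every 5-week animal lay above every 2-week animal, and in males 2 of the 5 animals stood above the other 3. At 6 weeks, females had 0.991, 2.22, 1.52, 1.99 and 1.81 (1.71 ± 0.475). The 6-week males had 1.37, 1.5, 1.64, 1.55 and 2.77 (1.77 ± 0.568), the last being far above the rest of its group.

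At 8 weeks, females had 0.657, 0.538, 0.756 and 0.931 (0.721 ± 0.167), the lowest group of all. The 8-week males had 1.20, 1.38, 0.855 and 1.36 (1.20 ± 0.242). All 8-week females lay below all 6-week females, while in males the 8-week range reached into that of 6 weeks. At 15 weeks, females had 1.05, 0.983, 1.10, 1.02 and 0.905 (1.01 ± 0.0742). The 15-week males had 1.32, 1.03, 1.97, 1.61 and 1.71 (1.53 ± 0.363), of which 4 of the 5 lay above every female of that age.

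At 21 weeks, females had 1.43, 1.25, 1.31 and 1.38 (1.34 ± 0.0754). The 21-week males had 2.15, 1.84, 1.87, 1.45 and 1.13 (1.69 ± 0.399). The male range enclosed the female range. At 78 weeks, females had 1.30, 1.5, 2.12, 1.96 and 1.41 (1.66 ± 0.361). The 78-week males had 3.1, 2.93, 2.75, 2.03 and 3.15 (2.79 ± 0.455), and 4 of the 5 lay above every female of that age. At 104 weeks, females had 3.80, 2.69, 2.03, 1.82 and 2.37 (2.54 ± 0.779). The 104-week males had 2.87, 2.54, 4.50 and 2.91 (3.20 ± 0.880), and these 2 oldest groups overlapped widely.

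**Figure D1:**
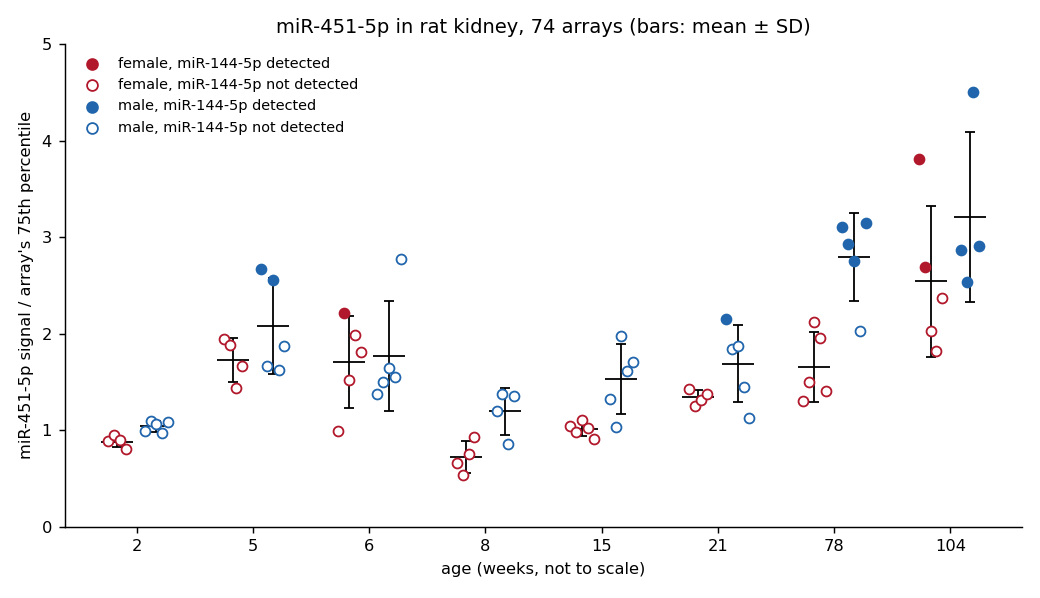
Normalized intensity of miR-451-5p (total gene signal divided by the array's 75th percentile, vertical axis) by age in weeks (horizontal axis, evenly spaced) in 36 female and 38 male kidneys, 1 point for each animal with bars for mean ± SD. Filled points are the 14 arrays that also detected miR-144-5p, which lie at 2.15 or above.

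The rank of the 16 groups ran from 8-week females over 2-week females and 15-week females to 78-week males and 104-week males at the top. All 15 pairs of neighbours in that order had overlapping ranges, so that no step of it was larger than the spread of the animals. Where 2 groups are said not to overlap, the share of all miRNAs that separate likewise is not given, and the separations are descriptions. The coefficient of variation within groups lay between 5.46% in 2-week males and 32.1% in 6-week males.

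The age effect was tested by a moderated F statistic of limma for females and males apart, and the p-values were adjusted (Benjamini-Hochberg) across the 311 miRNAs. An effect was called at an adjusted p under 0.05 where some pair of ages also differed at least 1.5-fold. miR-451-5p changed with age in females, where the widest gap was a 3.48-fold higher level at 104 than at 8 weeks (adjusted p = 4.15e-08). In males it was 3.0-fold higher at 104 than at 2 weeks (adjusted p = 4.24e-07). Such an age effect was common, with 36.7% of the miRNAs called in females and 45.7% in males. Both of these widest gaps lie between the early and the later slides, where age and slide cannot be told apart. Within the ages that shared slides, miR-451-5p was called too, in females with a 2.44-fold gap between 5 and 8 weeks (adjusted p = 0.000428) and a 2.43-fold gap between 15 and 104 weeks (adjusted p = 0.000479). In males the widest gaps were 1.95-fold between 2 and 5 weeks (adjusted p = 0.00175) and 2.09-fold between 15 and 104 weeks (adjusted p = 0.00316).

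Single steps were read from the joint limma fit over all 16 groups. From 2 to 5 weeks, miR-451-5p rose by 0.97 ± 0.22 (log2, SE) in females (1.95-fold, adjusted p = 0.000279). In males the same step was 0.96 ± 0.20 (1.95-fold, adjusted p = 3.34e-05). In either direction, 19.6% of all miRNAs were called at this step in females and 24.1% in males. From 5 to 6 weeks miR-451-5p differed by -0.07 ± 0.21 in females and -0.25 ± 0.20 in males (adjusted p = 1 and 0.832), where 0.965% and 0% of the miRNAs were called. On slides that held both 2 and 5 weeks, the rise between these ages was seen on 3 of 3 slides in females (1.06 to 1.13, log2). In males it was seen on 5 of 5 (0.60 to 1.43).

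From 6 to 8 weeks, miR-451-5p in females fell by 1.22 ± 0.21 on the log2 scale (2.33-fold lower at 8 weeks, adjusted p = 6.28e-05). It was the 1 miRNA of 311 called at that step (0.322%), so that no other miRNA was called there. The fall was seen on 4 of 4 shared slides (from -1.89 to -0.59), and the call held with each array left out in turn. In males the difference was -0.54 ± 0.21, which did not pass (adjusted p = 0.214, unadjusted p = 0.0117), and 0 of 311 miRNAs were called at this step by limma in males (0%). The change from 6 to 8 weeks was not tested for a difference between the sexes.

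Later, no step between neighbouring ages of females passed the test in the main setting, from 8 to 15 weeks (0.52 ± 0.21, adjusted p = 0.117), 15 to 21 weeks (0.41 ± 0.21, adjusted p = 0.575), 21 to 78 weeks (0.28 ± 0.21, adjusted p = 0.446) or 78 to 104 weeks (0.59 ± 0.20, adjusted p = 0.0548). The shares of all miRNAs called at these steps were 2.57%, 0.643%, 4.18% and 3.86% in that order. All 21-week females lay above all 15-week females, which is a description and no test. The step from 78 to 104 weeks was called with slide as a fixed block (adjusted p = 0.0323), slide as a random block (adjusted p = 0.0314) or scan day as a block (adjusted p = 0.045), at the same difference of 0.59. Over the whole span from 15 to 104 weeks the rise was called, at 1.28 ± 0.20 (2.43-fold, adjusted p = 9.04e-07), where 6.11% of the miRNAs were called. All 5 of the 104-week females lay above all 15-week females. The rise was seen on 4 of 4 shared slides.

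In males, the step from 21 to 78 weeks was called, at 0.74 ± 0.20 (1.67-fold, adjusted p = 0.00312), where 10.9% of the miRNAs were called. It was positive on 5 of 5 shared slides (0.44 to 1.48). From 78 to 104 weeks the difference was 0.18 ± 0.21 (adjusted p = 0.926, 0.965% of all miRNAs called). The earlier steps did not pass either, with 0.34 ± 0.21 from 8 to 15 weeks (adjusted p = 0.538, 1.61% called) and 0.14 ± 0.20 from 15 to 21 weeks (adjusted p = 0.822, 2.25% called). From 15 to 104 weeks the level rose by 1.07 ± 0.21 (2.09-fold, adjusted p = 3.7e-05), and 12.9% of the miRNAs were called.

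The mean of miR-451-5p was higher in males than in females at each of the 8 ages. The differences in log2 were 0.24 ± 0.21 (SE) at 2 weeks, 0.24 ± 0.21 at 5, 0.05 ± 0.20 at 6, 0.74 ± 0.22 at 8, 0.56 ± 0.20 at 15, 0.30 ± 0.21 at 21, 0.76 ± 0.20 at 78 and 0.35 ± 0.21 at 104 weeks. A call at a single age needed an adjusted p under 0.05 and a 1.5-fold difference. It was reached at 78 weeks (1.69-fold, adjusted p = 0.00295), where 6.75% of the miRNAs were called in either direction. It was also reached at 8 weeks (1.66-fold, adjusted p = 0.0488), where 2.57% were. The 8-week call lay at the edge: it was lost with 6 of the 8 arrays left out singly (0.60 to 0.89 over all 8) and under 8 of the 16 other settings. At 78 weeks the methods' t-test did not pass (adjusted p = 0.0606).

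At the other ages the adjusted p was 0.601 at 2 weeks, 1 at 5 and 6 weeks, 0.0565 at 15, 0.518 at 21 and 0.272 at 104 weeks. The shares of all miRNAs called were 3.86%, 0%, 0.322%, 3.54%, 4.82% and 6.75% at these ages. The 15-week difference was called with scaling to the miRNAs on all arrays (0.65, adjusted p = 0.0247), with scaling over all miRNAs (0.82, adjusted p = 0.0087) and without replicate 2 of the males (0.70, adjusted p = 0.0182). The 6-week difference turned to -0.04 when each array was scaled to the 75th percentile of the 166 miRNAs that no array missed. It also turned to -0.13 without the lowest female and to -0.12 without the highest male. The age by sex interaction of miR-451-5p was not called (adjusted p = 0.34), against 28.3% of the miRNAs that were.

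The mean of the 8 differences was then tested in the same limma fit, a contrast chosen after the values at single ages had been seen. miR-451-5p was 0.40 ± 0.07 (log2, SE) higher in males, or 1.32-fold (adjusted p = 1.08e-05), which was under the 1.5-fold threshold. At an adjusted p under 0.05 alone, 12.5% of the miRNAs were higher in males and 13.5% lower, and 2.57% also passed the 1.5-fold threshold. The value lay between 0.38 and 0.42 with any 1 array left out and between 0.28 and 0.48 under the other settings. Among the arrays of the same age that shared a slide, males were higher in 26 of 33 comparisons (median 0.29, range -0.58 to 1.36). Either probe of miR-451-5p alone gave a positive difference at all 8 ages, and the 2 probes differed by at most 0.16 in any of them.

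**Figure D2:**
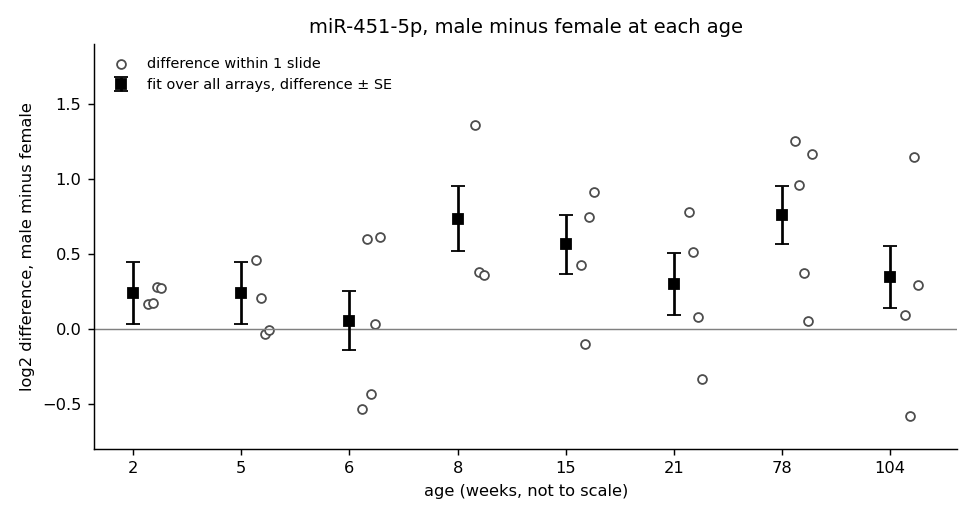
Male minus female difference of miR-451-5p in log2 (vertical axis) at each age in weeks (horizontal axis, evenly spaced), with squares and bars for the fitted difference ± SE and open circles for arrays of both sexes on the same slide. All 8 squares lie above 0, and 26 of the 33 circles do.

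miR-144-5p, which lies ahead of miR-451 in the primary transcript, was near the limit of detection. Its detected signals were 3.82 to 11.1, or 0.0184 to 0.0621 in normalized intensity. At 104 weeks it was detected in 4 of 4 males, at 0.0300, 0.0276, 0.0359 and 0.0248, and in 2 of 5 females, at 0.0621 and 0.0241. At 78 weeks it was detected in 4 of 5 males, at 0.0272, 0.0303, 0.0276 and 0.0351, and in 0 of 5 females. These 2 ages held 10 of the 14 detections.

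The others were 2 of 5 males at 5 weeks (0.0329 and 0.0226), 1 of 5 females at 6 weeks (0.0228) and 1 of 5 males at 21 weeks (0.0184). No array of 2, 8 or 15 weeks detected it in either sex. For tests, values under a common floor of 0.0171 were raised to it, so that arrays under it have no order among them. On that scale the age effect of miR-144-5p was called in males (adjusted p = 7.51e-06) and not in females (adjusted p = 0.356). The male call was lost with scaling over all 677 miRNAs (0.55 in log2, under 1.5-fold) and with normexp background correction (0.45, adjusted p = 0.094). Normexp was run with an offset of 50 added to each spot. The detected signals of miR-144-5p, at most 11.1, are totals over spots and on another scale. With normexp the 2 arms of miR-144 correlated within groups at r = 0.995. That setting hardly told the arms apart and cannot decide about so faint a miRNA. Between 15 and 104 weeks the floored difference in males was 0.77 (adjusted p = 0.000515), with detection in 0 of 5 and 4 of 4. Males of 2, 6, 8 and 15 weeks stood wholly at the floor and entered these fits with an SD of 0. The SD of log2 values was 0.41, 0.05, 0.39 and 0.23 in males of 5, 21, 78 and 104 weeks. The p-values of these age tests rest on a spread pooled over both kinds of group.

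At 78 weeks the floored difference of miR-144-5p between males and females was 0.64 ± 0.17 in log2 (adjusted p = 0.00351), beside the 0.76 of miR-451-5p. Groups wholly at the floor, such as the 78-week females, entered the pooled SE with an SD of 0, against 0.39 in the 78-week males. The difference did not pass by the methods' t-test (adjusted p = 0.0701), in a separate fit for each age (adjusted p = 0.0547), without replicate 6 of the males (0.55) or with scaling over all 677 miRNAs (0.50). It turned to -0.18 with normexp background correction. At 104 weeks the difference was 0.30 ± 0.18 (adjusted p = 0.264), and 0.65 without the 1 female with the highest value of all (0.0621).

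miR-144-3p, the arm usually taken as the active strand, was detected in 3 of 4 males at 104 weeks (0.0186, 0.0342 and 0.0347). It was also detected in 2 of 5 males at 21 weeks (0.0270 and 0.0591). It was detected in 0 of 36 females. Its age effect in males did not pass (adjusted p = 0.0791). The floored sex difference was 0.53 ± 0.16 at 104 weeks (adjusted p = 0.0098) and 0.49 ± 0.16 at 21 weeks (adjusted p = 0.035), both under 1.5-fold. Only these male groups held detections, and miR-144-3p was included through them, so the tests are no independent support for a sex difference. All other groups stood at the floor and entered the pooled SE with an SD of 0. The SD of log2 values was 0.55 in 104-week males and 0.78 in 21-week males, a spread that the SE and p-values understate. Past 1.5-fold, the 104-week difference was called in 4 other settings (0.59 to 3.96) and without replicate 1 or 2 of the males (0.67 and 0.71), was 0.38 without replicate 3 and 0.37 without replicate 6 (adjusted p = 0.1 and 0.132), and turned to -0.14 with normexp. The 21-week difference was called in 3 other settings (0.73 to 2.56) and without any 1 of the 3 males at the floor (0.61), and it was 0.16 without replicate 2 of the males. Both arms of miR-144 were detected on 4 arrays, and either on 15.

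The arrays that detected miR-144-5p were those with the highest miR-451-5p. miR-451-5p lay between 2.15 and 4.50 (median 2.81) on the 14 arrays that detected it and between 0.538 and 2.77 (median 1.38) on the 60 that did not. Of the 16 arrays with miR-451-5p at 2.15 or above, 2 did not detect miR-144-5p, the highest 6-week male (2.77) and 1 female of 104 weeks (2.37). Detection of miR-144-3p reached lower, to an array with miR-451-5p at 1.84. On 22 arrays at or above that level miR-144-3p was not detected.

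The miR-144 probes also carried a signal below the scanner's limit of detection. For the brighter probe of each arm, the mean background-subtracted signal of its spots was taken, less the array's median over miRNAs that no array detected, and divided by the array's 75th percentile. This readout was chosen after the data had been seen. For miR-144-5p it was 0.0186 ± 0.00916 (SD, n = 4) in 2-week females, 0.0182 ± 0.00846 in 8-week females, 0.0155 ± 0.00382 in 15-week females and 0.0470 ± 0.0306 in 104-week females. In males it was 0.0259 ± 0.00557 at 2 weeks, 0.0320 ± 0.0121 at 15 weeks, 0.0490 ± 0.00776 at 78 weeks and 0.0489 ± 0.00913 at 104 weeks. On this readout the ranges of 104-week males (0.0388 to 0.0604) and 15-week males (0.0199 to 0.0490) overlapped, and so did the males (0.0388 to 0.0594) and females (0.0214 to 0.0406) of 78 weeks. Over the 16 group means it correlated with miR-451-5p at r = 0.947, and the probe of miR-144-3p did at 0.787, which are descriptions.

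This spot signal followed miR-451-5p from animal to animal within groups. After the group means of age and sex were removed, the probe of miR-144-5p correlated with miR-451-5p at r = 0.744 and rho = 0.683 over 74 arrays (adjusted p = 3e-05 and 6e-05, permutation test within groups, two-sided, over 6 probes). The values of r were 0.731 at 2 to 8 weeks and 0.751 at 15 to 104 weeks. With slide means also removed r was 0.756, and without the 2 arrays farthest from the median it was 0.698. Among the 60 arrays on which miR-144-5p was not detected, r was 0.63. The probe of miR-144-3p had r = 0.553 and rho = 0.559 (adjusted p = 3e-05 and 6e-05, permutation test), with 0.484 without the 2 farthest arrays.

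The dimmer probes of both arms correlated as well, at r = 0.395 for miR-144-5p and r = 0.355 for miR-144-3p (adjusted p = 0.004 and 0.00846, permutation test). Over 907 probes of 365 other miRNAs that no array detected, r with miR-451-5p ranged from -0.464 to 0.356, with a median of -0.00795. The other arm of miR-451 did not move with it: the probes of miR-451-3p had r = -0.0848 and r = -0.2 (adjusted p = 0.553 and 0.163, permutation test). By mean signal, 48 of those 907 probes were as high as the brighter probe of miR-451-3p, against 14 for miR-144-5p and 25 for miR-144-3p. The brighter probe of miR-451-3p stood at 0.139 on 1 array of a 6-week male with miR-451-5p at 1.5.

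**Figure D3:**
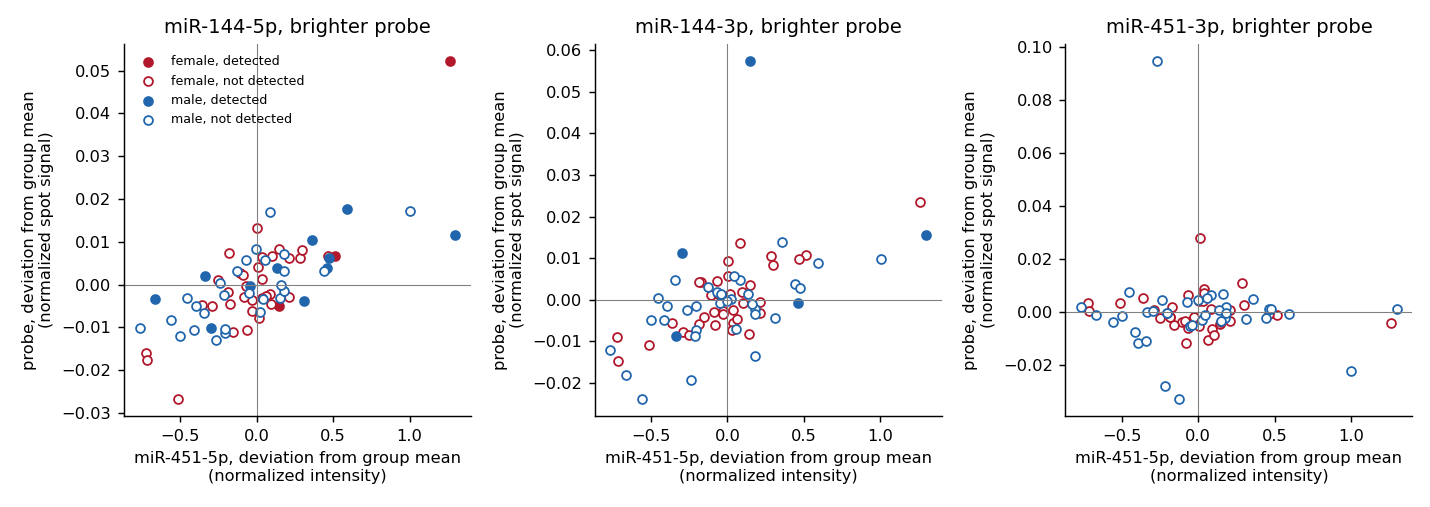
Normalized spot signal of the brighter probe of miR-144-5p, miR-144-3p and miR-451-3p (vertical axes, deviation from the mean of the group of age and sex) against the deviation of the normalized intensity of miR-451-5p (horizontal axes) for 74 arrays. Filled points are arrays on which the arm was detected. The points rise together for both arms of miR-144 (r = 0.744 and 0.553) and do not for miR-451-3p (r = -0.0848).

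On the scale of total gene signals with the floor, miR-451-5p correlated with miR-144-5p within groups at r = 0.525 and rho = 0.497 (adjusted p = 0.00078 for both, permutation test, 78 relations). This was the 1 relation of the 78 that passed on r, and 9 had an unadjusted p under 0.05. With normexp background correction it was lost (r = -0.00749, unadjusted p = 0.942, permutation test), but the offset of 50 in that setting leaves so faint a signal undecided. With miR-144-3p the value was r = 0.218 and rho = 0.268 (adjusted p = 0.562 and 0.611, permutation test). The 2 arms of miR-144, both mostly at the floor, had r = 0.0178 (adjusted p = 0.871, permutation test).

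No other miRNA of the lists compared moved with miR-451-5p within groups past the test. The 24 were markers of leukocytes, endothelium and platelets, kidney tubule, liver and striated muscle, 10 miRNAs abundant in red cells as well as elsewhere, and miR-221-3p and miR-222-3p, which restrain Kit and fall as red cells mature. Together with the array's 75th percentile their r lay between -0.264 for the lymphocyte miRNA miR-150-5p and 0.317 for the tubule miRNA miR-192-5p (smallest adjusted p 0.344, permutation test). miR-16-5p, one of the most abundant red cell miRNAs, had r = 0.0185. The endothelial miRNA miR-126a-3p had r = 0.0694. The 75th percentile itself, by which all values were divided, had r = 0.0536.

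**Figure D4:**
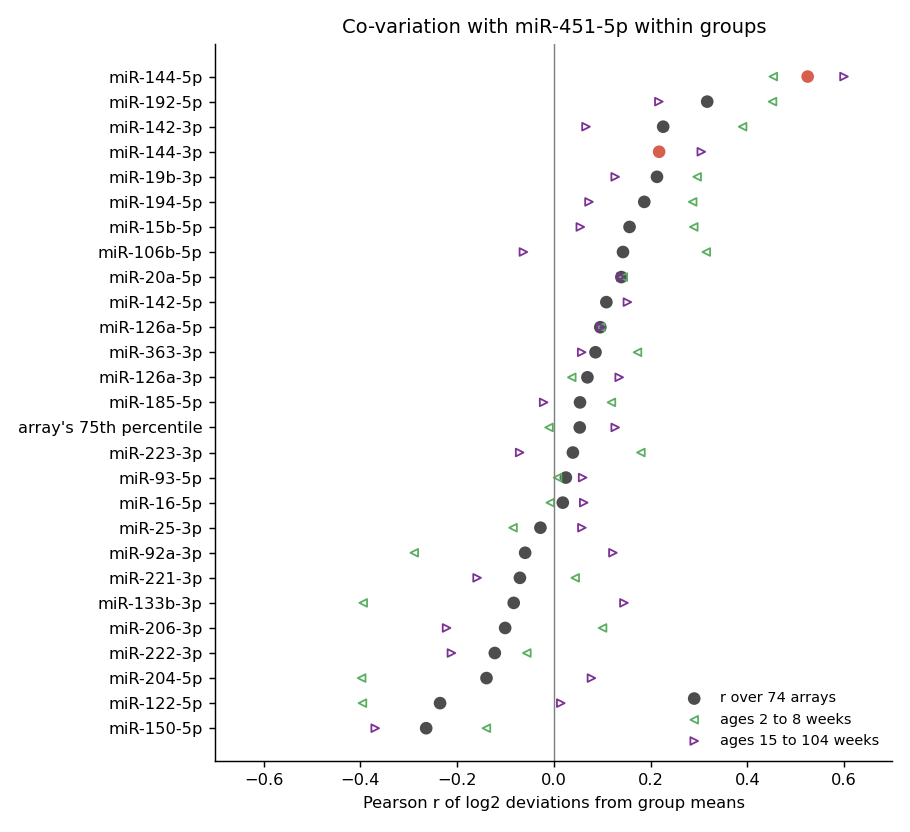
Pearson correlation with miR-451-5p of log2 deviations from group means (horizontal axis) for miR-144-5p, miR-144-3p, 24 comparison miRNAs and the array's 75th percentile (vertical axis), as circles over 74 arrays and triangles for the ages of 2 to 8 and 15 to 104 weeks alone. miR-144-5p stands highest at 0.525, a value that falls to -0.00749 with normexp background correction. That setting adds 50 to each spot and hardly tells the 2 arms of miR-144 apart (r = 0.995 between them). The comparison miRNAs lie between -0.264 and 0.317.

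The red cell list had its own course with age. Of its 10 miRNAs, 8 were called for an age effect in females and 8 in males, against 36.7% and 45.7% of all miRNAs. From 2 to 8 weeks, 5 of 10 were called lower in females and 7 of 10 in males, with 1 higher in each sex, miR-185-5p. Of all miRNAs, 12.5% were called lower and 8.04% higher in females over that span (20.6% in all), and 15.8% and 14.8% in males (30.5% in all). Their median difference was -0.56 in females and -0.79 in males, against 0.00 over all 311 miRNAs in both. Over that span miR-451-5p differed by -0.32 ± 0.22 in females (adjusted p = 0.288) and 0.18 ± 0.21 in males (adjusted p = 0.586). From 15 to 104 weeks 0 of the 10 were called by limma in females or in males, where 6.11% and 12.9% of all miRNAs were, a count near the background, and their medians were 0.07 and 0.03.

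Leukocyte miRNAs were higher at some of the same ages. Of 4 in the list (miR-223-3p, miR-150-5p, miR-142-3p and miR-142-5p, the last detected on 10 arrays), 4 were called higher in males at 104 than at 15 weeks, against 7.72% of all miRNAs, and 1 in females, miR-142-3p, against 2.25%. At 78 weeks 3 of the 4 were called higher in males than in females (3.54% of all miRNAs), and at 104 weeks all 4 were (4.18%). Their summed normalized intensity was 2.49 to 2.69 in 15-week females, 3.34 to 3.55 in 104-week females, 2.85 to 3.20 in 15-week males and 5.92 to 7.77 in 104-week males. At 78 weeks it was 2.58 to 3.50 in females and 4.15 to 7.18 in males. Within groups, the 4 had r with miR-451-5p of 0.0393, -0.264, 0.226 and 0.109 in the order named. The paper lists the same 4 as higher in males at 104 weeks, from these arrays. Like the other lists, this one was chosen with earlier results of these data known. The counts of calls are therefore no independent support. The part of leukocytes in the level of miR-451-5p was not tested.

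Tubule miRNAs were lower in old males. From 15 to 104 weeks in males, miR-192-5p fell by 0.60 and miR-194-5p by 0.65 (log2, adjusted p = 5.17e-08 and 8.97e-07), so that 2 of the 3 tubule markers were called, against 12.9% of all miRNAs, while miR-204-5p differed by -0.18 (adjusted p = 0.309). The summed normalized intensity of the 3 was 20.2 to 24.7 in 15-week males and 13.5 to 16.4 in 104-week males. From 21 to 78 weeks in males 1 of the 3 was called, miR-204-5p, which fell by 0.83 (adjusted p = 1.49e-08), where 10.9% of all miRNAs were called. In females 0 of the 3 were called from 15 to 104 weeks, where 6.11% of all miRNAs were, and their sum was 21.1 to 23.7 at 15 weeks and 21.9 to 23.4 at 104 weeks. The liver miRNA miR-122-5p rose over that span in females, by 3.31 (adjusted p = 0.0185). The part of these miRNAs and of their tissues in the level of miR-451-5p was not tested.

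The miRNAs whose course over the 16 group means was most like the mean of the members were miR-142-3p (r = 0.794), miR-34a-5p (0.776), miR-223-3p (0.764), miR-21-5p (0.737) and miR-146b-5p (0.684), out of 165 miRNAs detected on all arrays, which had a median of -0.152. Against the deviations within groups, over 74 arrays, they were miR-301a-3p (r = 0.436), miR-101a-3p (0.37), miR-335 (0.36), miR-29b-3p (0.332) and miR-19b-3p (0.328), with a median of -0.0356. No name stood in both sets. Both arms of miR-144 in that mean stood mostly at the floor. For miR-451-5p alone, the group means were most like those of miR-34a-5p (r = 0.759), followed by miR-142-3p (0.735). Within groups miR-301a-3p again stood highest (0.332). There miR-192-5p (0.317) was among the 5 highest for miR-451-5p alone, and miR-29b-3p and miR-19b-3p were not. The group means share slides and scaling, and these values are descriptions.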

How the data were processed

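The authors hybridized kidney RNA of 74 rats to single-colour Agilent rat miRNA arrays and deposited the scanner's output of each array. Per the file headers, Agilent Feature Extraction 10.7.3.1 took background-subtracted spots and summed up 20 of them per miRNA as a total gene signal, an intensity with no normalization between arrays. Deposited flags of 0 or 1 mark detection, outliers and saturation. No miRNA spot was saturated (0 marked). The deposited table of normalized intensities was not used, since 69 of its 74 columns were proportional to the scanner's output of another sample than the one named and 5 to their own. It served only to check names. Groups therefore rest on the sample to which each scanner output is attached.

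Total gene signals were scaled to the array's own 75th percentile, computed over the 311 miRNAs detected on any array. Values below a common floor of 0.0171, the lowest detected signal (1.39) over the smallest 75th percentile, were raised to it, and log2 was taken. The 75th percentiles ranged from 81.1 to 266. Tests were made with limma 3.58.1 in R 4.3.3, with 58 residual degrees of freedom, with Benjamini-Hochberg adjustment over the 311 miRNAs. Within-group correlations were tested with 100000 permutations in scipy 1.17.1 and numpy 2.4.6. The smallest p these allow is 1e-05. The fits and permutations were tested on simulated data. With 4 or 5 arrays in a group, their number sets the precision.

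The members and lists were chosen with earlier results of these data known. The mean sex difference, the spot signals below detection, each probe alone, the same-slide differences and the scan day as a block were chosen after seeing the data. Named miRNAs were the members, the lists and the 5 most correlated miRNAs by each of 2 measures. After group means were removed, arrays of the same replicate number in both sexes of an age had a mean r of -0.0513 over 28 pairs. Over 143 other pairs the mean r was 0.0116. Single values for the same number ran from -0.716 to 0.744, so a pairing by number is not excluded. The main fits used none.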

Additional observations from a re-analysis of the deposited data

Results flagged for a closer look

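In the 6-week males, the highest array (replicate 6) had miR-451-5p at 2.77, while the nearest of the others had 1.64 and the lowest 1.37. The gap made up 0.745 of the range of the group on the log2 scale, above the critical value of 0.71 for 5 samples. This was 1 array in 16 groups tested, and chance flags about 1 group in 20. Its miR-144-5p was not detected, although its miR-144-5p probe had the highest spot signal of the group (0.0437, against 0.0137 to 0.0297).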

How the results depend on the processing

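The age effect of miR-451-5p in both sexes and its fall from 6 to 8 weeks in females kept their calls under the settings run and with any 1 array left out. Its mean sex difference, under 1.5-fold throughout, kept an adjusted p under 0.05. The following changed, and the cause was not tested. For the largest age difference of miR-144-3p in males, the call was gained with the floor set before scaling (1.30), quantile normalization (1.15) and outlier spots left out (4.02, with a lower floor of its own), and left-out arrays gave 0.49 to 0.71. Its interaction F was 3.1, 3.78 and 4.94 in these settings and 1.68 to 3.76 with arrays left out. The interaction F of miR-144-5p passed with quantile normalization (3.43) and outlier spots left out (2.87), ranged from 1.55 to 6.72 with arrays left out, and was 6.72 without replicate 1 of the 104-week females. Its male age call was lost with scaling over all miRNAs (0.55), normexp (0.45) and ages of 2 to 8 weeks alone (0.27). The number of miRNAs with an age effect fell to 26 in females and 68 in males with normexp, to 66 and 94 at 2 to 8 weeks alone and to 28 and 52 at 15 to 104 weeks alone, where fewer samples were used.

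Reversed values were the 6-week sex difference of miR-451-5p (-0.039 with scaling to miRNAs detected on all arrays, and -0.13 to 0.16 with arrays left out), its female change from 5 to 6 weeks (-0.17 to 0.12 with arrays left out) and its male change from 8 to 15 weeks (-0.0895 with slide as a fixed block). With that block, only 1 15-week female joins the early and the later slides, so the value for males rests on that array. With normexp the sex differences were -0.14 for miR-144-3p at 104 weeks, and -0.18 and -0.17 for miR-144-5p at 78 and 104 weeks. The normexp offset of 50 is added to each spot, while the detected signals of miR-144 (at most 12.2) are totals over spots, on another scale. Normexp also gave correlations with miR-451-5p of -0.00749 for miR-144-5p and -0.0187 for miR-144-3p, and 0.995 between the arms of miR-144. It hardly told the arms apart, so this setting cannot decide about either arm. The correlation between the arms was -0.0128 with scaling over all miRNAs and 0.281 with the floor before scaling. miR-451-5p and miR-144-3p correlated at 0.312 with quantile normalization and 0.553 with the spot signal of the brighter probe. Slide as a fixed block could not be fitted for the age effect in males. With the replicate block, the 8-week sex difference of miR-451-5p was 0.69 (adjusted p = 0.0791) and the female change from 78 to 104 weeks 0.63 (adjusted p = 0.0495, limma), and no other call changed. That last change was called in 7 of 14 other settings, the slide and scan day blocks among them, and with 4 of 10 arrays left out, and the male rise from 21 to 78 weeks was under 1.5-fold with normexp (0.54).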
